A study of Mus musculus with 12 samples.

Results

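The genes described here are 9 integrin chains and the selectin ligand gene Selplg, 10 of the 25793 gene entries in the count table. They were chosen by name, as Itgal, Itgb2, Itga4, Itgb1, Itgb7, Itgb3, Itgav, Itgae, Itga6 and Selplg, and all 10 were found in both the count table and the FPKM table (fragments scaled by transcript length and sequencing depth). RNA was sequenced from 12 pools of mouse CD4+ T cells in a study of Pdcd1, the gene of the inhibitory receptor PD-1. Each pool held CXCR5hi GFP+ OT-II T cells, that is, follicular helper-type cells with a transgenic T cell receptor for an ovalbumin peptide. Of the 12 libraries, 6 came from Pdcd1+/+ cells (WT) and 6 from Pdcd1KI/KI cells (KI), both labelled as strain C57BL/6. What the knock-in allele changes is not stated in the labels, and neither is the age of the animals. Cells of both genotypes had been transduced with GFP and placed in B6 recipients beside dsRed-marked MD4 B cells, whose transgenic receptor binds hen egg lysozyme. All recipients received HEL-OVA with LPS and alum, and cells were taken from lymph nodes on day 5. The titles carry a first number, 1 or 2, and a second number, 1 to 3, of unstated meaning. Each genotype had 3 libraries at each first number, and libraries are named below as WT 1-1 to KI 2-3. No label says that the libraries came from separate animals, so p-values measure the spread between these libraries, which may be technical.

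Integrins are cell surface adhesion receptors made of 1 alpha and 1 beta chain, and the pairing sets the ligand. Itgal and Itgb2 form LFA-1, which binds ICAM molecules and holds T cells against B cells, dendritic cells and vessel walls. Itga4 pairs with Itgb1 to form VLA-4, a receptor for VCAM-1 and fibronectin, or with Itgb7 to form the MAdCAM-1 receptor that directs lymphocytes to the gut. Itgb7 can also pair with Itgae, which binds E-cadherin. Itgav pairs with Itgb1 or Itgb3 in receptors for matrix proteins such as vitronectin, and Itga6 with Itgb1 in a laminin receptor. Selplg encodes PSGL-1, the mucin-like protein on leukocytes that P-selectin binds. On resting T cells integrins bind weakly, and signals through Rap1, talin and kindlin raise their affinity.

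Gene counts per library ran from 717506 to 1801504, of which the 10 members together took 0.119% to 0.162%. As the check of the genotype labels, Pdcd1 ranged from 163 to 515 CPM (counts scaled by library total) over the WT libraries and from 21.1 to 127.6 CPM over the KI ones, without overlap. Summed CPM of 6 T cell markers lay between 4508 and 5959 in every library, and all 9 follicular helper markers, Cxcr5 used in the sort among them, had counts in each library except KI 1-2, where 1 was at 0. WT 1-3 stood apart, with 46.1% of its reads assigned to genes, the lowest share, and the highest sum of myeloid markers, 245.0 CPM. Genes were tested with edgeR's quasi-likelihood test, and a gene counted as changed at a Benjamini-Hochberg adjusted p under 0.05 over 7542 tested genes. Of the 10 members, 8 passed the filter on low counts and were tested, while Itgb3 and Itgae did not pass it.

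KI against WT, the comparison the series was designed for, changed 2 of 7542 genes (0.0265%) and 0 of the 8 tested members, whose edgeR adjusted p ran from 0.917 to 0.993. At an unadjusted p under 0.05 there were 407 genes (5.4%), among them 1 member, Itga4. Of the 8 members, 5 had a log2 fold change above 0 and 3 below, with a median of 0.05 against 0.02 over all tested genes. Pdcd1 itself did not pass in this fit despite a 4.15-fold difference (log2 fold change -2.05, SE 0.42, edgeR adjusted p 0.231). A gene that did not pass may therefore still differ by a large factor. The difference between first numbers 2 and 1, fitted beside genotype, changed 1208 genes (16.0%), with 639 higher (8.47%) and 569 lower (7.54%) at first number 2. Among the 8 members Itga4 rose and Itgb7 fell, and the other 6 had edgeR adjusted p of 0.123 or more. The median log2 difference of the members was -0.07, against 0.01 over all tested genes. No gene passed for the interaction of genotype and first number in edgeR, while 544 genes (7.21%) had an unadjusted p under 0.05 and DESeq2 called 7. None of the 8 members passed it in edgeR, with adjusted p from 0.727 to 0.989. Pools of cells cannot tell fewer cells of a type from less RNA per cell.

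**Figure D1:**
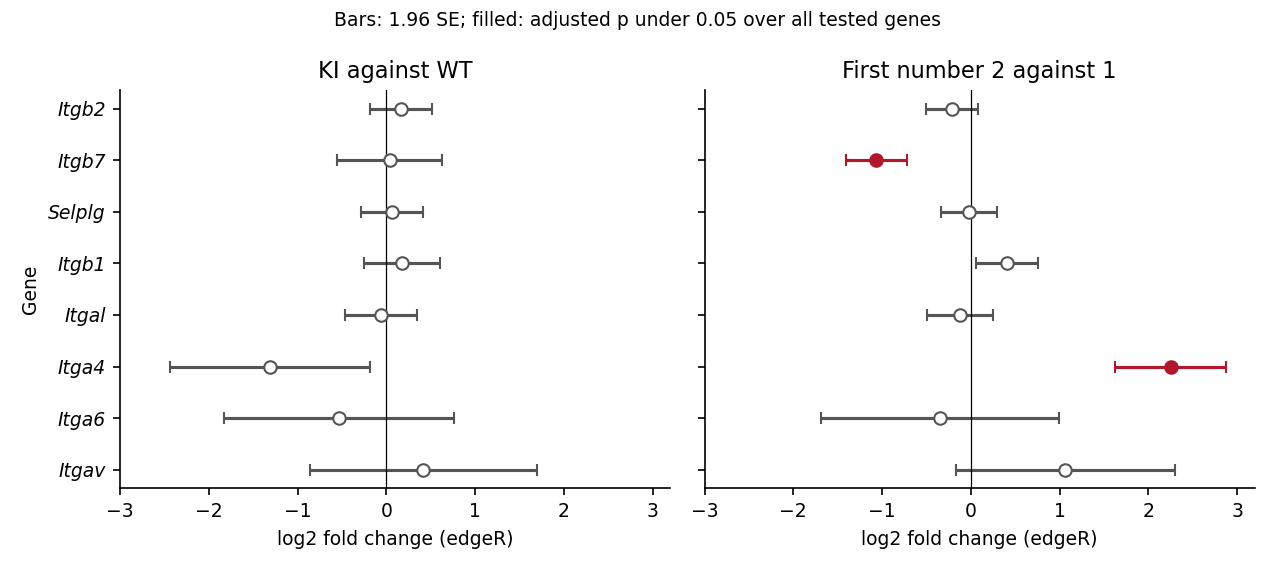
Log2 fold change of the 8 tested members from edgeR, with bars of 1.96 standard errors, for KI against WT (left) and first number 2 against first number 1 (right). No member passed the threshold on the left. On the right the filled points are Itga4, at 2.25, and Itgb7, at -1.07.

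On the FPKM scale, which is per length and allows levels of different genes to be set side by side, Itgb2 had the highest mean, 115.5 ± 22.9 FPKM (SD, n = 12), followed by Itgb7 at 92.0 ± 34.0, Selplg at 48.7 ± 8.55, Itgb1 at 39.1 ± 11.1 and Itgal at 23.0 ± 5.21. Itga4 followed at 7.31 ± 7.40 FPKM, then Itga6 at 1.68 ± 1.47 and Itgav at 1.03 ± 0.67. Itgb3 at 0.333 ± 0.623 and Itgae at 0.0182 ± 0.0425 FPKM came last. Each of the 5 highest members exceeded at least 91.2% of the entries of the table by mean FPKM. The ranges over libraries overlapped for every pair of neighbours in this order, although Itgal was above Itga4 in each of the 12 libraries. Itgb7 was above Itgb2 in 3 of 6 libraries at first number 1 and in 0 of 6 at first number 2. Itgb7 was below Selplg in 1 library, of first number 2.

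**Figure D2:**
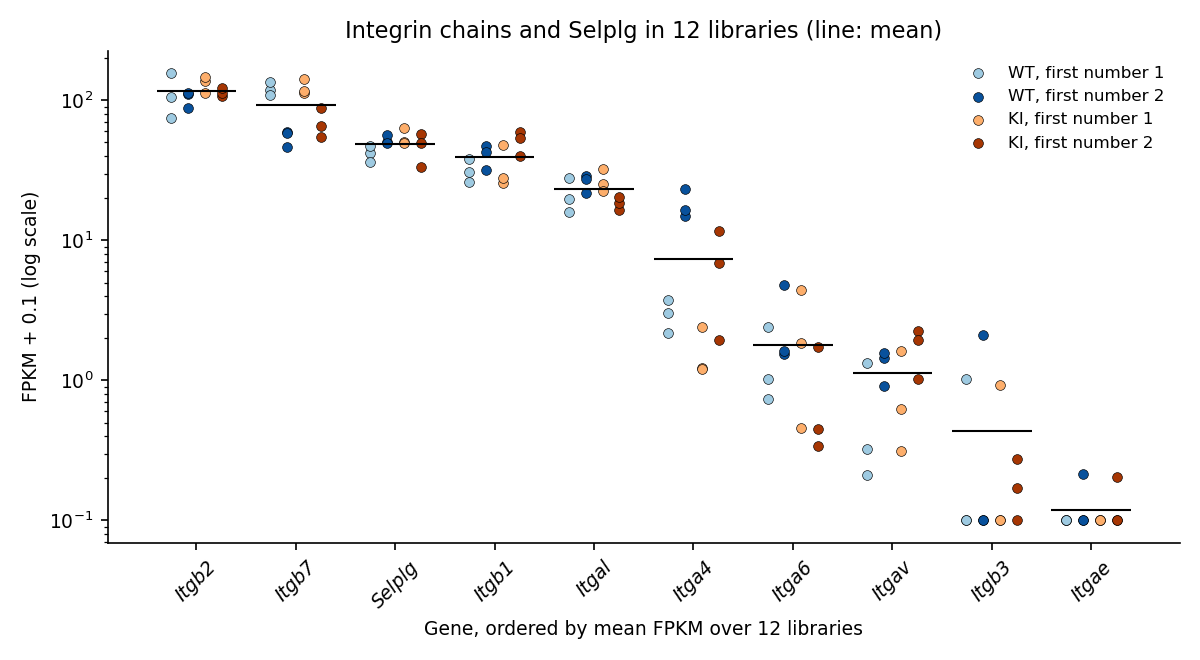
FPKM + 0.1 on a log axis for each of the 10 members, with 1 point per library coloured by genotype and first number, and a line at the mean of 12 libraries. The means fall from 115.5 FPKM for Itgb2 to 0.0182 FPKM for Itgae, and the points of Itga4 separate by first number except for 1 KI library.

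The LFA-1 chains were close to level across the 4 groups. Itgal (chr7:134439774-134478651, plus strand, NCBIM37), the alpha chain that contacts ICAMs, was measured at 149, 102 and 157 CPM in WT 1-1 to 1-3 and at 167, 126 and 169.5 CPM in WT 2-1 to 2-3. The KI libraries had 144, 143.5 and 189 CPM at first number 1 and 125, 105 and 129 CPM at first number 2. The 2 genotypes overlapped, and the KI libraries at first number 2 lay below those at first number 1, a pattern that 13.5% of tested genes shared. The log2 fold change for KI against WT was -0.06 (SE 0.21, edgeR adjusted p 0.979), with a 95% interval of -0.47 to 0.35. Its difference by first number was -0.12 (SE 0.19, edgeR adjusted p 0.722).

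Itgb2 (chr10:76992997-77028453, plus strand, NCBIM37), the beta chain shared by the leukocyte integrins, was measured at 580.1, 447 and 386 CPM in WT 1-1 to 1-3 and at 411, 323 and 409.7 CPM in WT 2-1 to 2-3. The KI libraries had 459.7, 459.8 and 564.5 CPM at first number 1 and 516, 388 and 475 CPM at first number 2. Both genotypes overlapped, and so did both first numbers. KI against WT gave a log2 fold change of 0.16 (SE 0.18, edgeR adjusted p 0.948), and first number 2 against 1 gave -0.21 (SE 0.15, edgeR adjusted p 0.369). The 95% interval for genotype, -0.18 to 0.51, contains no 2-fold change in either direction.

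Itga4, the alpha chain of VLA-4 and of the gut-homing integrin, had the highest coefficient of variation of the 8 tested members, 94.7% over the CPM of 12 libraries. The gene lies at chr2:79095583-79173280 on the plus strand (NCBIM37), and 1619 bases of its exons overlap those of Cerkl on the opposite strand. The use of strand in counting is not given in the sources used here, and Cerkl itself had 0 to 16 counts per library, so the Itga4 counts carry that uncertainty. Itga4 counts ran from 20 to 353. The 250 bases before the start sites of Itga4 and Itgb7 are shown because these are the 2 members that changed between first numbers, in opposite directions. They come from the RefSeq promoter table on build GRCm38.p6, which held 4 of the 10 members, Itga4, Itgb1, Itgb7 and Itgav. The Itga4 window is chr2:79255176-79255425 (plus strand) and the Itgb7 window chr15:102231936-102232185 (minus strand), both printed 5′ to 3′ along the gene, with motif matches in capitals.
Itga4: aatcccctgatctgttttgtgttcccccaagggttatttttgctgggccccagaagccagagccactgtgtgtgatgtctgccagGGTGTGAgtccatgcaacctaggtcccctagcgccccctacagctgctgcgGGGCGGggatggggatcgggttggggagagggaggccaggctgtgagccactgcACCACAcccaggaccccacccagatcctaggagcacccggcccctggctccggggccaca
Itgb7: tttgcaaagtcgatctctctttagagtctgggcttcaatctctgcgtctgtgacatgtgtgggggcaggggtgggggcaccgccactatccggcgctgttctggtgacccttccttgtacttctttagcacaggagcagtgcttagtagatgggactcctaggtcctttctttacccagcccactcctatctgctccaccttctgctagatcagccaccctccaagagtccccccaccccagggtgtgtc
Both strands were searched for 4 motifs of factors active in T cells. These were TGTGGT (RUNX), GGTGTGA (T-box), CGGAAG (ETS) and GGGCGG (KLF and Sp), and no matches overlapped each other. The Itga4 window held GGTGTGA from -165 to -159, GGGCGG from -114 to -109 and ACCACA, the RUNX letters read on the other strand, from -60 to -55, counted from the start site. The Itgb7 window held none of the 4. Over 32851 windows of the same length in the table, TGTGGT on either strand occurred in 14.0%, GGTGTGA in 3.33%, CGGAAG in 13.6% and GGGCGG in 32.7%. The windows of Itgav (CGGAAG, -55 to -50) and Itgb1 (GGGCGG, -151 to -146) held 1 match each. The GC content was 64.0% for Itga4 and 56.0% for Itgb7, against a median of 52.4% over all windows. A match describes the letters only.

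Across first numbers, Itga4 was measured at 25.4, 45.3 and 47.6 CPM in WT 1-1 to 1-3 and at 173, 175 and 262.5 CPM in WT 2-1 to 2-3. In KI it was at 25.7, 16.5 and 13.5 CPM in 1-1 to 1-3 and at 95.8, 120.5 and 25.2 CPM in 2-1 to 2-3. All WT libraries of first number 2 were above those of first number 1, as in 14.5% of tested genes, while in KI the library 2-3 lay within the range of first number 1. The log2 difference was 2.25 (SE 0.32, edgeR adjusted p 8.66e-05), a 4.76-fold higher level at first number 2. It passed within each genotype, at 2.36 in WT (edgeR adjusted p 0.00453) and 2.12 in KI (edgeR adjusted p 0.0276). Without KI 2-3 it was 2.46 (edgeR adjusted p 1.34e-05), and without WT 1-3 it was 2.31 (edgeR adjusted p 0.000119).

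Between the genotypes, the mean of Itga4 was 121 ± 95.8 CPM (SD, n = 6) for WT against 49.5 ± 46.3 CPM (SD, n = 6) for KI. The ranges overlapped, with WT from 25.4 to 262.5 CPM and KI from 13.5 to 120.5 CPM. The log2 fold change was -1.31 (SE 0.58), with a 95% interval of -2.44 to -0.18, an unadjusted p of 0.0341 and an edgeR adjusted p of 0.917. Within first number 1 it was -1.08 (edgeR adjusted p 0.557), with WT 1-1 at 25.4 CPM and KI 1-1 at 25.7 CPM. Within first number 2 it was -1.34 (edgeR adjusted p 0.606), with all 3 KI libraries below all 3 WT libraries, as in 5.83% of tested genes. With each library left out in turn it ran from -1.83 to -0.93, the former without KI 2-2 and the latter without WT 2-3, and passed in none. The interaction of genotype and first number was -0.28 (SE 0.63, edgeR adjusted p 0.974). So the genotype difference of Itga4 did not pass once adjusted over all tested genes, and its interval in the fit without first number was wide. With first number fitted beside genotype the log2 fold change was -1.21 (SE 0.31, edgeR adjusted p 0.209). Its 95% interval there was narrower, from -1.82 to -0.60, and it did not pass either.

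**Figure D3:**
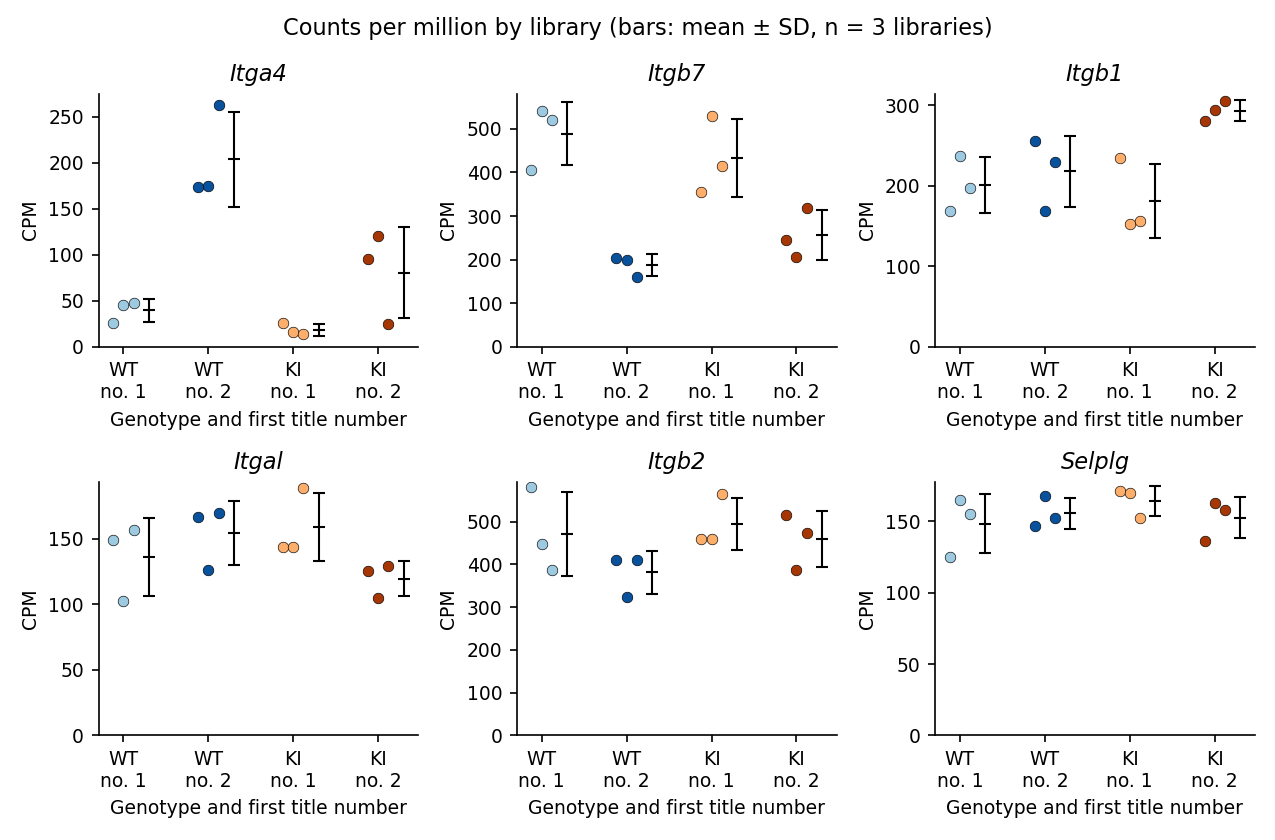
CPM of 6 members in each library, by genotype and first title number (no. 1 or no. 2), with the mean and SD of 3 libraries beside the points, each panel on its own axis from 0. Itga4 is high at first number 2 except in the KI library at 25.2 CPM, Itgb7 is low at first number 2 in both genotypes, and Selplg stays between 125 and 172 CPM.

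Itgb1 (chr8:131209554-131257100, plus strand, NCBIM37), the beta chain of VLA-4 and of the laminin and matrix receptors, was at 168, 237 and 197 CPM in WT 1-1 to 1-3 and at 255, 169 and 229 CPM in WT 2-1 to 2-3. The KI values were 234, 153 and 156 CPM at first number 1 and 280.0, 294 and 306 CPM at first number 2. The KI libraries of first number 2 lay above the WT libraries of first number 2, as in 5.6% of tested genes, and above the KI libraries of first number 1, as in 13.0%. KI against WT gave a log2 fold change of 0.18 (SE 0.22, edgeR adjusted p 0.9495). First number 2 against 1 gave 0.41 (SE 0.18, edgeR adjusted p 0.123), and the interaction 0.58 (SE 0.34, edgeR adjusted p 0.755).

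Itgb7 (chr15:102046426-102062366, minus strand, NCBIM37), the beta chain of the gut-homing and E-cadherin receptors, moved opposite to Itga4. It was measured at 406, 540.3 and 520.0 CPM in WT 1-1 to 1-3 and at 205, 199 and 159 CPM in WT 2-1 to 2-3. In KI it was at 354.5, 531 and 414 CPM at first number 1 and at 246, 205 and 318.5 CPM at first number 2. All 6 libraries of first number 2 lay below all 6 of first number 1, as in 3.51% of tested genes. The log2 difference was -1.07 (SE 0.17, edgeR adjusted p 0.000339), a 2.09-fold lower level at first number 2. Within WT it was -1.41 (edgeR adjusted p 0.00674), where the groups did not overlap, as in 12.7% of tested genes, and within KI it was -0.75 and did not pass (edgeR adjusted p 0.0773), with groups of 3 libraries. The interaction did not pass either, at 0.62 (SE 0.32, edgeR adjusted p 0.727). Without WT 1-3 the log2 difference was -1.01 (edgeR adjusted p 0.000657).

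Between the genotypes Itgb7 was nearly level, with means of 338 ± 171.9 CPM (SD, n = 6) for WT and 345 ± 117.8 CPM (SD, n = 6) for KI. The log2 fold change was 0.03 (SE 0.30, edgeR adjusted p 0.993), and its 95% interval of -0.56 to 0.63 contains no 2-fold change. It was -0.19 within first number 1. At first number 2 all 3 KI libraries lay above all 3 WT libraries, as in 5.6% of tested genes.

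Markers of cytotoxic and NK cells moved with the first number. The summed level of the 10 markers in the table was 47.6 to 208 CPM at first number 1 and 279.7 to 702 CPM at first number 2. Of these markers, 4 of the 4 tested were called higher, against 8.47% of all tested genes. The 4 were Nkg7, Gzmk, Klrb1c and Cd8b1, with log2 differences of 2.09, 2.98, 1.78 and 1.57. At first number 1 the means of Gzmk, Klrb1c and Cd8b1 were low, at 9.96, 8.44 and 10.6 CPM. Such a marker can pass the count filter through the libraries where it is high, so its share called is not like that of all tested genes. Ncr1, an NK cell receptor gene, was at 0 in all 12 libraries, and Gzma and Klrd1 were at 0 in every library of first number 1. Of 6 regulatory T cell markers, 2 of the 3 tested, Ikzf2 and Ctla4, were called higher at first number 2, against the same 8.47%. Tnfrsf18 was tested as well and did not pass (log2 difference 0.18, edgeR adjusted p 0.591). Foxp3 was below the count filter, at 0 in every KI library and in every library of first number 1. The 6 markers summed to 229.5 to 395 CPM at first number 2, against 125.5 to 302 CPM at first number 1. Of 9 follicular helper markers, 2 were called higher and 3 lower at first number 2, against 16.0% of all tested genes in either direction. Cxcr5, the receptor used in the sort, was lower in every library (log2 difference -0.72, edgeR adjusted p 0.00208), as in 3.51% of tested genes, and Pdcd1 had -1.56 (edgeR adjusted p 8.40e-05). B cell markers, summed over 8 genes, ran from 83.2 to 190.4 CPM over WT and from 17.5 to 93.3 CPM over KI, with Pax5 at 0 in every library. All 5 tested B cell markers had a log2 fold change below 0 for KI against WT, and 0 were called. The part of these markers in the differences of Itga4 and Itgb7 was not tested. What the first number stands for is not stated, so any condition that differed with it cannot be told apart from the number.

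The remaining alpha chains and Itgb3 were low. Itgav (chr2:83564554-83647073, plus strand, NCBIM37), the alpha chain of vitronectin and fibronectin receptors, had 1 to 38 counts per library. It was at 2.06, 1.16 and 15.9 CPM in WT 1-1 to 1-3 and at 12.4, 13.9 and 7.44 CPM in WT 2-1 to 2-3. In KI it was at 4.38, 15.3 and 2.03 CPM at first number 1 and at 12.3, 18.2 and 17.7 CPM at first number 2. Values under 5 CPM occurred only at first number 1, in 4 of its 6 libraries, while WT 1-3 and KI 1-2 were as high as first number 2. First number 2 against 1 gave a log2 difference of 1.07 (SE 0.63, edgeR adjusted p 0.263), and KI against WT gave 0.42 (SE 0.65, edgeR adjusted p 0.960). An opposite-strand transcript, Gm13684, overlaps 634 bases of the Itgav exons, and its counts were not used here.

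Itga6 (chr2:71583673-71696473, plus strand, NCBIM37), the laminin receptor alpha chain, had 2 to 41 counts per library. It was at 3.44, 6.97 and 17.6 CPM in WT 1-1 to 1-3 and at 25.3, 8.32 and 8.18 CPM in WT 2-1 to 2-3. Among the KI libraries it had 21.3, 10.99 and 2.03 CPM at first number 1 and 2.46, 8.16 and 2.05 CPM at first number 2. High and low libraries occurred in both genotypes, and the KI libraries of first number 2 lay just below the WT ones, as in 5.83% of tested genes. KI against WT gave a log2 fold change of -0.53 (SE 0.66, edgeR adjusted p 0.955), and first number 2 against 1 gave -0.35 (SE 0.69, edgeR adjusted p 0.777).

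Itgb3 (chr11:104469370-104531790, plus strand, NCBIM37), known from platelets as well as from activated leukocytes, was counted in 5 libraries. These were WT 1-1 with 10 counts, WT 2-2 with 27, KI 1-1 with 9, KI 2-2 with 1 and KI 2-3 with 2. The difference of KI from WT on the log2(CPM + 1) scale was -0.41 (two-sided exact permutation p 0.697 over 924 splits). The 6 platelet markers summed to 0.554 CPM in WT 2-2, 0.626 CPM in KI 1-1 and 1.92 CPM in KI 2-2, all of them libraries with Itgb3 counts, and to 0 in the other 9. Pf4, Ppbp, Gp1bb and Treml1 were at 0 in all 12 libraries, and the part of these traces in the Itgb3 counts was not tested.

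Itgae (chr11:72904085-72960948, plus strand, NCBIM37), the E-cadherin receptor alpha chain of tissue-resident T cells, had 2 counts in WT 1-3, 1 in WT 2-2, 2 in KI 2-2 and 0 in the other libraries. A count of 0 allows up to 3 counts, which is 1.73 to 3.202 CPM in the libraries at 0. The two-sided exact permutation p for KI against WT was 0.727. Itgae was at or under 3 counts in each of the 12 libraries, and no difference was detectable at this depth.

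Selplg (chr5:114267807-114280510, minus strand, NCBIM37) had the most even level of the members. It was measured at 125, 165 and 155 CPM in WT 1-1 to 1-3 and at 146.5, 168 and 152 CPM in WT 2-1 to 2-3. Its KI values were 172, 169.7 and 152 CPM at first number 1 and 136, 163 and 158 CPM at first number 2. All groups overlapped. KI against WT gave a log2 fold change of 0.06 (SE 0.18, edgeR adjusted p 0.975), with a 95% interval of -0.29 to 0.41. First number 2 against 1 gave -0.02 (SE 0.16, edgeR adjusted p 0.955), with an interval of -0.33 to 0.30. Both intervals contain no 2-fold change.

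The coefficient of variation of CPM over 12 libraries, which includes both group and library differences, was 9.04% for Selplg. Of 1521 genes with a mean within 2-fold of it, 0.0% had a lower value and the median was 30.2%. At the other end, the value of Itga4 given above exceeded 98.7% of the 2545 genes of like level, whose median was 35.8%. Itgb7 had 41.2%, above 90.3% of 601 genes. The LFA-1 chains were on the even side, with 18.4% for Itgal (6.35% of 1653 genes lower) and 16.7% for Itgb2 (15.2% of 401 genes lower). Itgb1 was intermediate at 24.3%, with 35.8% of 1013 genes lower. Itgav, at 63.1%, and Itga6, at 79.95%, varied as low genes did, with medians of 64.8% and 65.4% for genes of like level. All these values are by CPM. By FPKM Selplg was less even, at 17.6% over the 12 libraries, near the 19.9% of Itgb2, and genes of like level were not compared on that scale.

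Because an integrin needs both chains, the FPKM of each beta chain was set against that of its alpha chain. These are transcript ratios and say nothing of surface protein. Itgb2 exceeded Itgal 3.83-fold to 6.59-fold in all 12 libraries, the narrowest range of the pairs. At first number 2 the ratio was 3.84 to 4.12 in WT and 6.01 to 6.56 in KI, without overlap, while at first number 1 WT spanned 3.83 to 6.59 around the KI values of 4.54 to 5.45. By CPM at first number 2, 5.6% of single tested genes were higher and 5.83% lower in all KI libraries. No such share was computed over ratios. Over all libraries log2(alpha/beta) was -2.14 ± 0.32 in WT and -2.42 ± 0.18 in KI (SD, n = 6 each), a difference of -0.28 (two-sided exact permutation p 0.0996, adjusted over 7 ratios 0.348). It was 0.05 within first number 1 and -0.61 within first number 2, and the difference between these was not tested.

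Itgb7 exceeded Itga4 by far more at first number 1 than at first number 2. The ratio of Itgb7 to Itga4 FPKM was 56.5, 37.4 and 36.8 in WT 1-1 to 1-3 and 4.0, 3.55 and 2.0 in WT 2-1 to 2-3. In KI it was 48.9, 125 and 104 at first number 1 and 8.08, 5.61 and 48.1 at first number 2. Only KI 2-3, the library with low Itga4, reached the range of first number 1. The log2(alpha/beta) ratio rose by 2.84 from first number 1 to first number 2 (two-sided exact permutation p 0.00649, adjusted over 7 ratios 0.0227), which restates the opposite differences of the 2 genes.

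Itgb1 exceeded Itga4 1.82-fold to 3.19-fold in WT at first number 2 and 8.84-fold to 14.8-fold in WT at first number 1. In KI the ratio was 20.6 to 24.9 at first number 1 and 5.08, 5.87 and 29.4 at first number 2, above every WT ratio of the same first number. By first number the log2(alpha/beta) ratio of this pair differed by 1.37 (two-sided exact permutation p 0.039, adjusted over 7 ratios 0.0909). Over all libraries log2(alpha/beta) for Itga4 and Itgb1 was -2.10 ± 1.12 in WT and -3.37 ± 0.84 in KI (SD, n = 6 each). The difference was -1.27 (two-sided exact permutation p 0.0563, adjusted over 7 ratios 0.348), with -0.69 within first number 1 and -1.85 within first number 2. For Itga4 and Itgb7 the genotype difference was -1.26 (two-sided exact permutation p 0.227, adjusted over 7 ratios 0.427), with -0.67 and -1.85 within the 2 first numbers. Within 1 first number, 3 libraries against 3 cannot give an exact permutation p below 0.1. The 4 ratios of Itgae, Itgav and Itga6 to their beta chains had genotype differences of -0.53 to 0.45 and adjusted exact permutation p of 0.427 to 0.924. With Itgae at or near 0, its ratio follows Itgb7 alone.

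**Figure D4:**
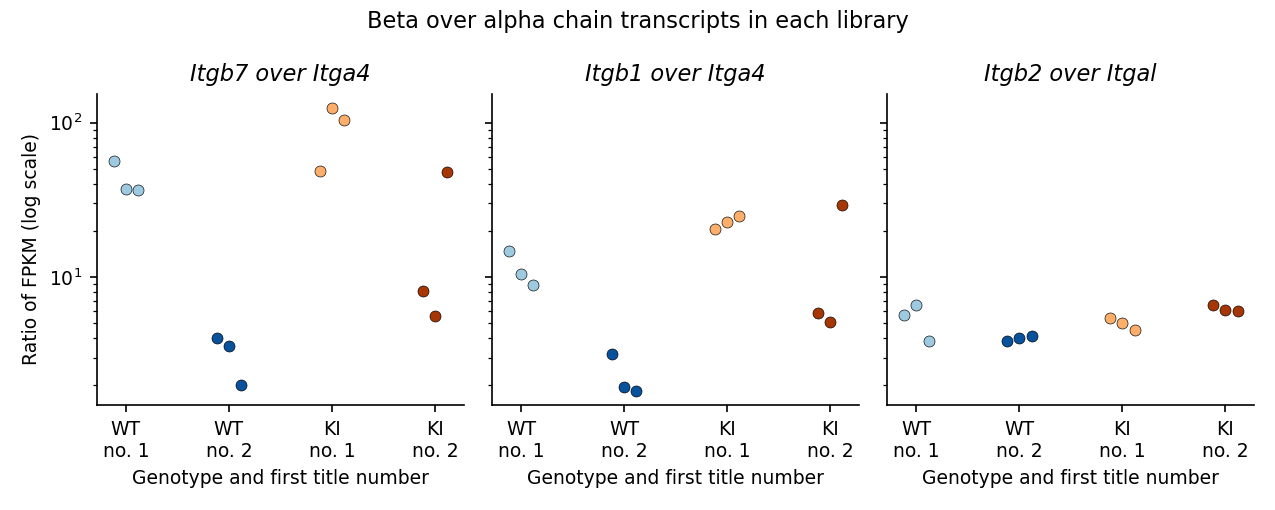
Ratio of beta chain to alpha chain FPKM on a log axis for Itgb7 over Itga4, Itgb1 over Itga4 and Itgb2 over Itgal, with 1 point per library by genotype and first title number. The first 2 ratios are lower at first number 2 in every library but KI 2-3, at 48.1 and 29.4, while Itgb2 over Itgal stays between 3.83 and 6.59.

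The other 18 integrin chains fell below the count filter without exception. Among them 7 had 0 counts in all 12 libraries, including Itga1, Itga2 and Itga5, the alpha chains of collagen and fibronectin receptors. The highest single count was 35, for the laminin receptor chain Itga7 in KI 1-3, followed by 19 for Itgb5 in WT 1-2. Itgam and Itgax, the alpha chains of myeloid integrins that share Itgb2, had at most 1 count and 0 counts per library. No alpha partner of Itgb2 other than Itgal had more than the 5 counts of Itgad in any library. These other chains were picked for mention after their values were seen.

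Of 30 genes that activate integrins or link them to the cytoskeleton, 25 were tested and 0 passed between the genotypes. The smallest p-values there belonged to the adaptor gene Zyx, with 147.5 ± 23.95 CPM for WT against 189.9 ± 44.1 CPM for KI, and to the kindlin gene Fermt3, at 68.85 ± 14.1 and 94.5 ± 29.9 CPM (SD, n = 6 each). Their edgeR adjusted p were 0.932 and 0.937. Between first numbers 4 of the 25 were called higher and 3 lower, against 16.0% of all tested genes in either direction, with a median log2 difference of -0.13 against 0.01. Higher at first number 2 were both genes of the small GTPase Rap1, which switches integrins to high affinity. Rap1a rose from 92.8 ± 26.7 to 236 ± 34.4 CPM (SD, n = 6 each), a log2 difference of 1.35 (SE 0.20, edgeR adjusted p 0.000112). Rap1b rose by 1.46 (SE 0.21, edgeR adjusted p 0.000119), and for both genes no library of first number 2 overlapped with first number 1, as in 2.97% of tested genes. Their partners Rassf5 (RAPL) and Stk4 (MST1), which carry the Rap1 signal to LFA-1, rose by 0.72 (edgeR adjusted p 0.0352) and 0.87 (edgeR adjusted p 0.000747). Lower were the talin gene Tln1, whose product binds beta chain tails, from 199 ± 11.2 to 124 ± 24.0 CPM (SD, n = 6 each), the linker kinase gene Ilk and Rhoh. The log2 differences were -0.69 for Tln1 (edgeR adjusted p 0.00805), -0.76 for Ilk (edgeR adjusted p 0.0272) and -0.56 for Rhoh (edgeR adjusted p 0.0272).

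Of 13 genes of integrin ligands and selectins, 3 passed the count filter, and none was called in either comparison. The LFA-1 ligand gene Icam2 had a log2 fold change of -0.39 for KI against WT (SE 0.32, edgeR adjusted p 0.937).

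Of 18 genes that build selectin ligands or carry them, 12 were tested and 0 passed between the genotypes. Cd24a, a glycoprotein that can carry P-selectin ligands, ranged over 13.9 to 29.1 CPM for WT and 1.92 to 13.5 CPM for KI, with all KI libraries below all WT libraries, as in 0.146% of tested genes. Its log2 fold change was -1.72 (SE 0.55, unadjusted p 0.00498, edgeR adjusted p 0.916). Cd24a is also made by B cells, and the B cell marker sums given above were lower in KI as well, and their part in this was not tested. Cd44, a hyaluronan receptor, had -0.50 (SE 0.33, edgeR adjusted p 0.937). Between first numbers 2 of the 12 were called higher and 1 lower, against 16.0% of all tested genes in either direction. St3gal6, a sialyltransferase that acts in selectin ligand synthesis, rose from 5.62 ± 3.34 to 28.4 ± 9.02 CPM (SD, n = 6 each), a log2 difference of 2.40 (SE 0.48, edgeR adjusted p 0.00185). Cd44 rose by 1.05 (SE 0.22, edgeR adjusted p 0.00236). Tpst2, a tyrosylprotein sulfotransferase of the kind that sulfates PSGL-1, fell by 0.86 on the log2 scale (SE 0.17, edgeR adjusted p 0.00215).

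**Figure D5:**
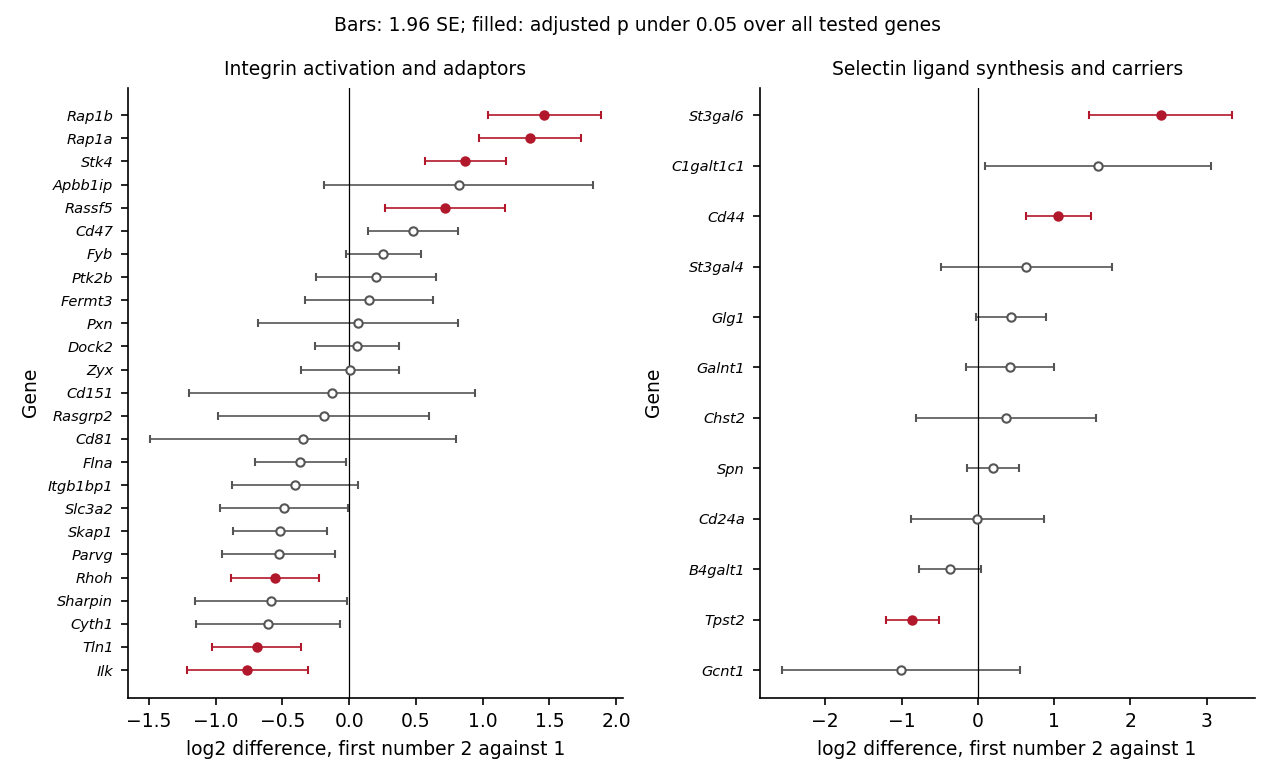
Log2 difference of first number 2 against first number 1 from edgeR, with bars of 1.96 standard errors, for the tested genes of integrin activation (left) and of selectin ligand synthesis and carriers (right). Filled points passed an adjusted p of 0.05, with Rap1b at 1.46 and Rap1a at 1.35 at the top left and St3gal6 at 2.40 at the top right.

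For 5 members the genes with the most similar pattern were ranked by Pearson's r of log2 CPM over the 12 libraries, after the mean of each first number was removed, among 7541 genes. These r are descriptions over libraries that share genotype groups and depth, and with 12 libraries the top of so many values is high for any gene. Itga4 was most like Ikzf1 (r = 0.93), which encodes the lymphocyte transcription factor Ikaros, Fyco1 (0.92) and BC049349 (0.92). Its r with its partner chains was -0.13 for Itgb1 and -0.54 for Itgb7. Itgal was most like Hip1r (0.91), 5730455O13Rik (0.89) and R3hdm2 (0.88), and its r with Itgb2 was 0.21. Itgb2 was most like Tfg (0.95), Glrx2 (0.90) and Eif3i (0.89). Itgb7 was most like 2900092E17Rik (0.86), the proteasome gene Psma7 (0.86) and Supt5h (0.86). Selplg was most like Skiv2l2 (0.94), the RNA polymerase II gene Polr2d (0.94) and Fam53c (0.88). No other member appeared among the 3 genes most like any of these 5.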

How the data were processed

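RNA was measured in 12 libraries, 6 WT and 6 KI, grouped by genotype and by the numbers in the sample titles. The authors deposited raw read counts per gene symbol and, in a separate table, FPKM values for the same libraries. Per the submitters' processing notes, build mm9, CASAVA, TopHat2, Cufflinks, HTSeq and DESeq2 were used, without roles or versions. The strand setting and any removal of duplicate reads are not given in the sources used here. Reads from small amplified pools are not independent molecules, so floors cover counting error only. The intervals rest on the spread between these libraries, as the edgeR p-values do. The 5 summary entries for unassigned reads were left out. Their share was 39.8% to 53.9%.

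The count table was fitted with edgeR 4.0.16 in R 4.3.3 (TMM scaling, filterByExpr by genotype, glmQLFit and glmQLFTest at their defaults, Benjamini-Hochberg adjustment over 7542 genes). CPM values use TMM-adjusted totals. The 3 fits used all 12 libraries, with genotype alone, with first number beside genotype, and with their interaction. A standard error is the absolute log2 fold change divided by the square root of F. Ratios of chains were taken on log2(FPKM + 1), and the 2 members below the filter on log2(CPM + 1), both by exact permutation. As alternatives, DESeq2 1.42.0, voom and FPKM fits with limma 3.58.1, other scalings (RLE, upper quartile), other filters, blocks by title numbers, subsets and each library left out were run. Scripts were tested on simulated data. Gene positions are from GENCODE vM1 on NCBIM37 (mm9), and promoter windows from RefSeq on GRCm38.p6.

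The members and gene lists were chosen with earlier results of these data known. All 10 members are described. Genes of the integrin and selectin lists are named where they pass the threshold in either comparison, up to 6 per direction, and otherwise the 2 with the smallest p. Cell type markers are given by counts and sums, and those named were chosen after their values were seen. For 5 members the 3 most correlated genes are named. The values of 1 gene of these lists are not reported here.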

Additional observations from a re-analysis of the deposited data

Results flagged for a closer look

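In 34 sets of 6 libraries, 3 had a library far from the other 5, where chance gives about 1 in 20. All 3 were sets of a member's CPM within a genotype, and all 3 concern members near 0 counts. Itgb3 in KI 1-1 was at 5.64 CPM (9 counts), a gap of 0.758 of the range to the next KI library. Itgae in WT 1-3 was at 3.53 CPM (2 counts), a gap of 0.843 of the range. Itgae in KI 2-2 was at 0.96 CPM (2 counts), the only KI library with a count.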

How the results depend on the processing

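KI against WT called 0 to 2 genes with each library left out in turn. It called 11 by DESeq2, 1 by limma-voom, 4 without a filter, and 0 on FPKM with a pseudocount of 1 (488 genes at an unadjusted p under 0.05) or 0.1 (490), also by limma. First number 1 alone gave 3 and first number 2 alone 1. The fit with first number taken as replicate block called 4, among them Pdcd1 (log2 fold change -2.24, edgeR adjusted p 7.65e-06), and that with both numbers 3. The block moved no member past the threshold (Itga4 -1.21, edgeR adjusted p 0.209). Libraries of WT and KI share their title numbers without a stated pairing. The deviations of same-numbered libraries from their genotype means correlated with r of 0.083 to 0.258 over 6 pairs, and of -0.061 to 0.034 once the means of each first number were removed. Of 12 libraries 4 correlated best with their own number, and all 12 with a library of their own first number. With splits kept within first numbers (replicate block), the log2 ratio difference of Itga4 to Itgb1 stayed -1.27 (exact permutation p 0.005, adjusted over 7 ratios 0.035) and that of Itga4 to Itgb7 -1.26 (exact permutation p 0.01, adjusted 0.035), so each passed in that 1 of 16 alternatives. First number 1 alone and first number 2 alone could not pass, since 3 libraries against 3 give no exact permutation p below 0.1. The other alternatives split the libraries without regard to first number. Members chosen with results known lend the p-values of these ratios no independent weight. First number 2 against 1 called 752 (without KI 2-2) to 1252 genes with a library left out, 782 on FPKM with a pseudocount of 0.1, 381 in WT alone and 359 in KI alone, the last 2 with fewer samples. Itga4 passed in each of 22 alternatives and Itgb7 in 21 of 22, the exception being KI alone at -0.75. Itgb1 passed only at a mean of at least 50 counts, with 0.46 (edgeR adjusted p 0.0498). The interaction called 7 genes by DESeq2, 140 without a filter and 0 to 24 with a library left out (24 without WT 1-1).

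The sign was not stable for members near 0 difference, none of which passed. For KI against WT, first number 1 alone gave 0.21 for Itgal, -0.16 for Itgb1, -0.19 for Itgb7 and 0.36 for Itga6, and first number 2 alone gave -0.024 for Selplg. With a library left out, Itgal ran from -0.16 to 0.013 and Itgb7 from -0.13 to 0.21. For first number 2 against 1, Selplg turned to 0.001 (upper-quartile scaling), 0.006 (limma-voom), 0.038 (mean of at least 50 counts), 0.043 (FPKM with a pseudocount of 1, and WT alone), 0.044 (FPKM with a pseudocount of 0.1) and ran from -0.081 to 0.028 with a library left out. Itga6 turned to 0.20 (limma-voom) and 0.63 (WT alone) and ran from -0.80 to 0.11, and Itgal was 0.15 in WT alone. The interaction ran from -0.73 to 0.14 (without KI 2-3) for Itga4 and from -1.54 to 1.32 for Itgav with a library left out. Log2 ratio differences turned to 0.051 for Itgal to Itgb2 and 0.26 for Itga6 to Itgb1 (first number 1 alone), and to -0.085 for Itgav to Itgb1 (first number 2 alone), the last running from -0.15 to 0.19 with a library left out. The cause of these changes was not tested. Depth limits Itgae, Itgb3, Itgav and Itga6, with 0 to 41 counts per library.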
